A study of Mus musculus with 4 samples.

Results

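The regions described here are stretches of macrophage chromatin that carried a peak of H3K4me3 and a peak of H3K9me3 in wild-type and in Sun knockout cells alike. They were chosen by the positions of the authors' peaks, as the H3K4me3 peaks of the wild-type library that shared at least 1 bp with a peak of each of the other 3 lists, 2410 of 31398 peaks (7.68%). Chromatin immunoprecipitation with sequencing (ChIP-seq) had been carried out with antibodies against both marks on peritoneal macrophages elicited with thioglycollate broth and cultured, from C57BL/6 mice aged 8 weeks. The 4 libraries were H3K4me3 in wild type, H3K4me3 in Sun-/-, H3K9me3 in wild type and H3K9me3 in Sun-/-, with 1 library per mark and genotype. What Sun abbreviates is not given in the sources used here, nor in which cells it was deleted or how many mice were pooled. With 1 library in each group no difference has a replicate check, no p-value was computed, and every interval is a 95% interval that covers counting error only. Coordinates are those of mm10.

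H3K4me3 is deposited at the start of active genes and at CpG-rich promoters by the SET1 and MLL methyltransferase complexes. H3K9me3 is deposited by SETDB1 and the SUV39H enzymes and holds repeats, clusters of zinc finger genes and the silent copy of imprinted genes in a closed state. A region under both marks can carry them on different parental copies, in different cells or on the same nucleosomes, and these cannot be told apart in libraries made from many cells. Peaks were called without a control library, so whether each peak reflects its mark was not tested either. Since the overlap of peaks chose the regions, the presence of both marks is a description and no finding.

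The regions fell into groups of very different kinds. Only 7 held over 1000 tags in every library and are called tag-rich below. Of the others, 1439 (59.7%) lay within 1000 bp of the start of a protein-coding gene, 121 (5.02%) at another gene's start, 368 (15.3%) inside a protein-coding gene, 61 (2.53%) inside another gene and 414 (17.2%) between genes. Coding promoters made up 56.8% of the H3K4me3 peaks of both genotypes without H3K9me3. Where H3K9me3 was called in the wild type alone or the knockout alone, they made up 79.9% and 77.4%. Peaks between genes made up 11.6%, 5.06% and 4.81% of the same groups. The overlap rule had few borderline cases. In 3 regions the smallest of the overlaps was 20 bp or less, and 9 peaks outside the set would have entered it if peaks within 100 bp counted. The libraries held 26748289 to 29681491 tags after duplicate removal, the lists 17369 to 31398 peaks. All 10 macrophage markers looked up, among them Adgre1 and Csf1r, had H3K4me3 at the start in both genotypes. The same held for 1 of 5 markers of T or NK cells (Cd4), 3 of 8 of mesothelium or fibroblasts (Col1a1, Pdgfra and Wt1), 1 of 4 of eosinophils or mast cells (Kit), and 0 of 4 each for B cells and neutrophils. None of these 35 genes had a region under both marks at its start. Of all protein-coding genes 7.04% had one, and of those with H3K4me3 at the start in both genotypes 11.4%. With so few marker genes, their lack of such a region is a description and no finding about them.

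The promoter sequences below belong to germline genes, where the share of genes under both marks was highest, and to the imprinted gene Mest. They are the RefSeq promoters of build GRCm38.p6, the assembly of mm10, with 250 bases before and 50 after the start, read 5′ to 3′ on the strand of the gene. In the germline promoters capitals mark CACGTG, the E-box, which reads alike on both strands, and GCGGGAA or its reverse complement TTCCCGC, a core bound by E2F factors. In Mest they mark TGCCGC or its reverse complement GCGGCA, the core bound by ZFP57, which keeps H3K9me3 on imprinted copies.
Tex12 promoter, chr9:50561219-50561518, minus strand: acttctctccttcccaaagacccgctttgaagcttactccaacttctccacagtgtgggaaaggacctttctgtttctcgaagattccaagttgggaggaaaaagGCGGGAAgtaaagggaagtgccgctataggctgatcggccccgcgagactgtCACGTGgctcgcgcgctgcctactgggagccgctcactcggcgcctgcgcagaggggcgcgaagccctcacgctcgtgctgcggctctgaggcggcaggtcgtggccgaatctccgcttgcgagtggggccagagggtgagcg
Ddx4 promoter, chr13:112652261-112652560, minus strand: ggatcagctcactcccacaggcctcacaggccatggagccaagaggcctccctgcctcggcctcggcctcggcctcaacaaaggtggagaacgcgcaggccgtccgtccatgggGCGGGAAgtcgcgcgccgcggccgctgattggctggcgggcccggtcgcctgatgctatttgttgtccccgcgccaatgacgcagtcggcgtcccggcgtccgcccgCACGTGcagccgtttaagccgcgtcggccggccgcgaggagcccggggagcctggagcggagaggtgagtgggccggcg
Stag3 promoter, chr5:138280259-138280558, plus strand: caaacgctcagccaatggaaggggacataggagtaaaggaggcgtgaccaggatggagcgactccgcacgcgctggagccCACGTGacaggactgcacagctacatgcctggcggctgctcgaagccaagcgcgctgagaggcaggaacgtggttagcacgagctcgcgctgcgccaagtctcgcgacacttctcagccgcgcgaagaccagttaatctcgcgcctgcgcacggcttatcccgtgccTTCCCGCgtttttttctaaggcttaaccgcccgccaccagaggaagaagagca
Ddx25 promoter, chr9:35558421-35558720, minus strand: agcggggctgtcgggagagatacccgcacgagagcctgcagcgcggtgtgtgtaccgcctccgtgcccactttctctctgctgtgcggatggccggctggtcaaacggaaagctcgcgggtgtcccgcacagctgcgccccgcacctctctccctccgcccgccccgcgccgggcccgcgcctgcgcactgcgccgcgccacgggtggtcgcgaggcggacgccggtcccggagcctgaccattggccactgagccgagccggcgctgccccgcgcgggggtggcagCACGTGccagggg
Dazl promoter, chr17:50293571-50293870, minus strand: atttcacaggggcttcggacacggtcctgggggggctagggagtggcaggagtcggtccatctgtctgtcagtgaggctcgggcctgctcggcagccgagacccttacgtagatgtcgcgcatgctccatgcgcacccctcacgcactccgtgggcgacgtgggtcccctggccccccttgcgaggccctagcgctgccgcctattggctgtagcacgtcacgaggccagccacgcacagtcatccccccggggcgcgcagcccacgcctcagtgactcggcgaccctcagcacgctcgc
Mest promoter, chr6:30737800-30738099, plus strand: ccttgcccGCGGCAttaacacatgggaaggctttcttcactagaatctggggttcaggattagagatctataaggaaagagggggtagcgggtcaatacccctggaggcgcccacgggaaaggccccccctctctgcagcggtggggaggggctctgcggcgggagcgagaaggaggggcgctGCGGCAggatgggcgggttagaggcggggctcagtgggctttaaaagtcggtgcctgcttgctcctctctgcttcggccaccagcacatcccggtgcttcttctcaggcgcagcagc
An E-box began at base 158 in Tex12, 222 in Ddx4, 81 in Stag3 and 288 in Ddx25, counted from 1 at the left end. The E2F core began at base 106 in Tex12, 115 in Ddx4 and 248 in Stag3. Dazl held neither of them in this window, and Mest held the ZFP57 core at bases 9 and 184. That core was also in Tex12, at bases 124 and 249, and in Dazl, at base 196, where it is not in capitals.

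The 7 tag-rich regions were set apart by their counts, over 1000 tags in every library. High counts of both marks there follow from that cut and are a description. In all 4 libraries the counts of both marks were of the same order in these regions. Their name in the selection speaks of repeats, but no repeat annotation was used here, so that is not checked. At chr14:19415351-19419815, between genes and 10259 bp from the nearest gene start in the table, the peaks held 4294 wild-type and 3982 knockout H3K4me3 tags, and 5269 and 4959 H3K9me3 tags. At chr17:39842898-39849064 the region covered Rn18s-rs5, an 18S ribosomal RNA related sequence, and AY036118, with 3123 and 3275 H3K4me3 tags and 4111 and 4328 H3K9me3 tags. The region with most tags and the ribosomal one thus had more H3K9me3 than H3K4me3 tags in both genotypes.

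A region inside the annotated span of Tmem267 (chr13:119595424-119603680) held 2535, 2415, 3070 and 3043 tags, with both genotypes of H3K4me3 given before both of H3K9me3 and the wild type first, an order kept below. Near the noncoding gene 2700054A10Rik (chr17:13549959-13553485) the counts were 1763, 1638, 2256 and 2279. Neighbouring regions between genes on chromosome 2 held 1100, 1049, 1204 and 1191 tags (chr2:98662135-98663315) and 1720, 1684, 1787 and 1775 tags (chr2:98666027-98667641). At the noncoding gene Gm40237 (chr4:118546916-118549083) they were 1077, 1039, 1098 and 1167. In unscaled counts all 7 held more H3K9me3 than H3K4me3 tags in both genotypes. The lowest count that let a region in was 1039, and the first region left out, in Gm20590 on chromosome 13, had a lowest count of 922.

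Peak widths of the tag-rich regions were similar in all 4 lists. The widest of the 4 peaks was 1.03 to 1.36 times as wide as the narrowest. As a log2 ratio of tags per filtered tag, H3K9me3 over H3K4me3 was 0.13 to 0.49 in wild-type cells and -0.02 to 0.38 in knockout cells. The knockout interval included 0 at Gm40237 (-0.05 to 0.19), chr2:98662135-98663315 (-0.03 to 0.21) and chr2:98666027-98667641 (-0.12 to 0.08). In coding promoters under both marks the same ratio had medians of -4.04 and -3.58. The cut for tag-rich regions used the H3K9me3 tags too, so this contrast is a description. Between genotypes the H3K4me3 ratio of the tag-rich regions, knockout over wild type, was 0.04 to 0.22, and the H3K9me3 ratio -0.13 to 0.04. The ribosomal region had the highest H3K4me3 ratio, 0.22 (interval 0.15 to 0.29). These 7 regions held 14.0% (wild type) and 12.6% (knockout) of the H3K9me3 tags of all regions, but 1.94% and 2.41% of the H3K4me3 tags.

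**Figure D1:**
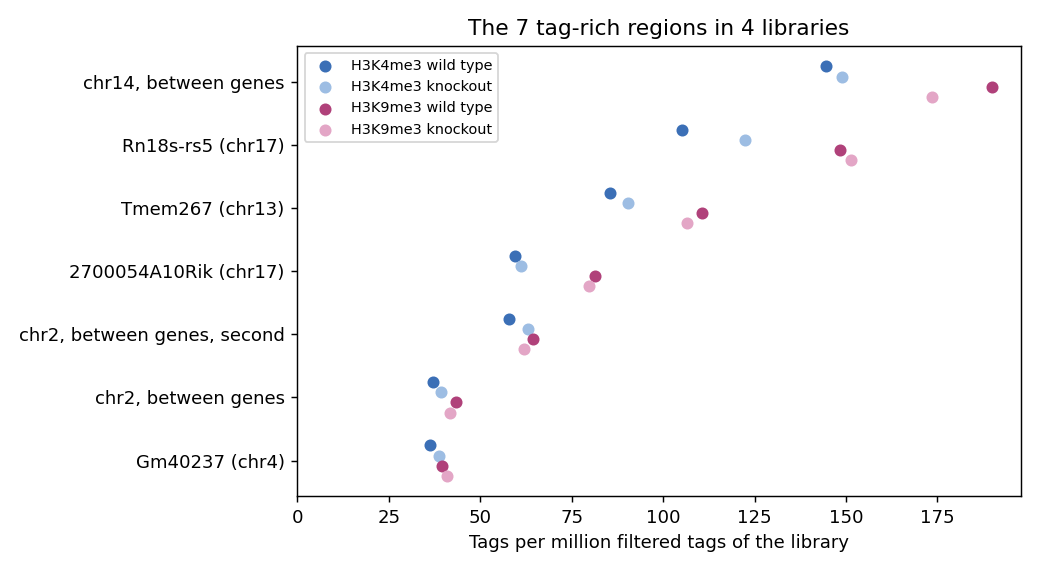
Tags relative to all tags of the library after duplicate removal (x axis, scaled as labelled) in the 7 tag-rich regions (rows), 1 point per library, with no error bars because each group has 1 library. H3K9me3 lies right of H3K4me3 in every row for wild-type cells, by a log2 ratio of 0.13 at Gm40237 to 0.49 at Rn18s-rs5.

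Away from the tag-rich regions, coding promoters and gene-distant regions formed separate clouds. Coding promoters had strong H3K4me3 and weak H3K9me3. Their median H3K4me3 count was 443 tags (quartiles 324 and 581.5) in wild-type cells and 331 in knockout cells, while the H3K9me3 median was 25 tags (quartiles 16 and 35) and 29. Regions between genes had a median of 41 and 42 H3K4me3 tags and of 43 and 46 H3K9me3 tags, so both marks were about equal there. Inside protein-coding genes the medians were 50, 54, 39 and 46, in the same order of libraries. At other gene starts they were 134, 110, 48 and 46. More H3K9me3 than H3K4me3 tags in both genotypes were counted in 210 of 414 regions between genes (50.7%), in 144 of 368 inside coding genes (39.1%) and in 14 of 1439 coding promoters (0.973%).

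**Figure D2:**
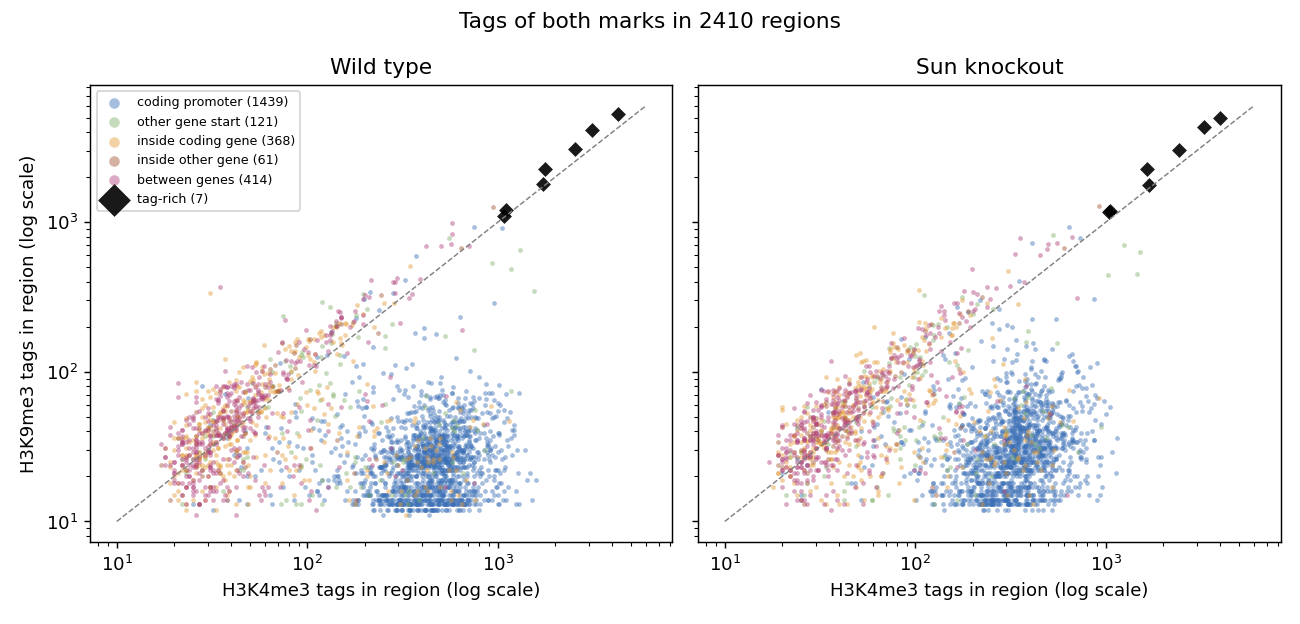
H3K4me3 tags (x axis) against H3K9me3 tags (y axis, both log scales) of each of the 2410 regions, in wild type (left) and Sun knockout (right); colours give the position relative to genes and the dashed line marks equal counts. Coding promoters form a cloud far below the line around 443 and 25 tags in the wild type, and regions between genes lie along the line.

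H3K9me3 peaks were narrow beside the H3K4me3 peaks of coding promoters. In wild-type cells their summed width was a median of 16.2% of the H3K4me3 width in coding promoters and 67.6% in regions between genes. Sums wider than the H3K4me3 peak were counted as its full width, and the part lying inside it was not measured. The median widths in coding promoters were 2132 bp for H3K4me3 and 344 bp for H3K9me3 in wild-type cells, and 1956 and 400 bp in knockout cells. Between genes they were 665.5 and 408 bp in wild-type cells, and 713 and 438.5 bp in knockout cells. Per kb of its own peaks, H3K9me3 was denser than H3K4me3 in 384 of 414 regions between genes (92.8%) of wild-type cells and in 385 of knockout cells, but in 42 and 65 of 1439 coding promoters (2.92% and 4.52%). Peaks of each mark were called separately, without a control library and with a fragment size of 66 and 71 bp for H3K9me3 against 142 and 149 bp for H3K4me3. Their part in these widths was not tested.

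The summits of both marks lay close together. The strongest H3K9me3 summit was a median of 85 bp from the H3K4me3 summit for wild-type H3K9me3 (quartiles 28 and 221 bp) and 90 bp for knockout H3K9me3, both measured from the wild-type H3K4me3 summit. Where H3K9me3 was called in the wild type alone or in the knockout alone within an H3K4me3 peak of both genotypes, the medians were 84 bp over 1086 regions and 93 bp over 1933, so this closeness was not particular to regions marked in both. The gene start was off to the side of both summits. In the 1164 coding promoters with a start of known strand, the H3K4me3 summit lay a median of 267 bp (wild type) and 280.5 bp (knockout) downstream of the start. For H3K9me3 the medians were 283.5 and 280.5 bp downstream, and 742 (63.7%) and 714 (61.3%) of the summits fell within the first 500 bp of the gene.

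**Figure D3:**
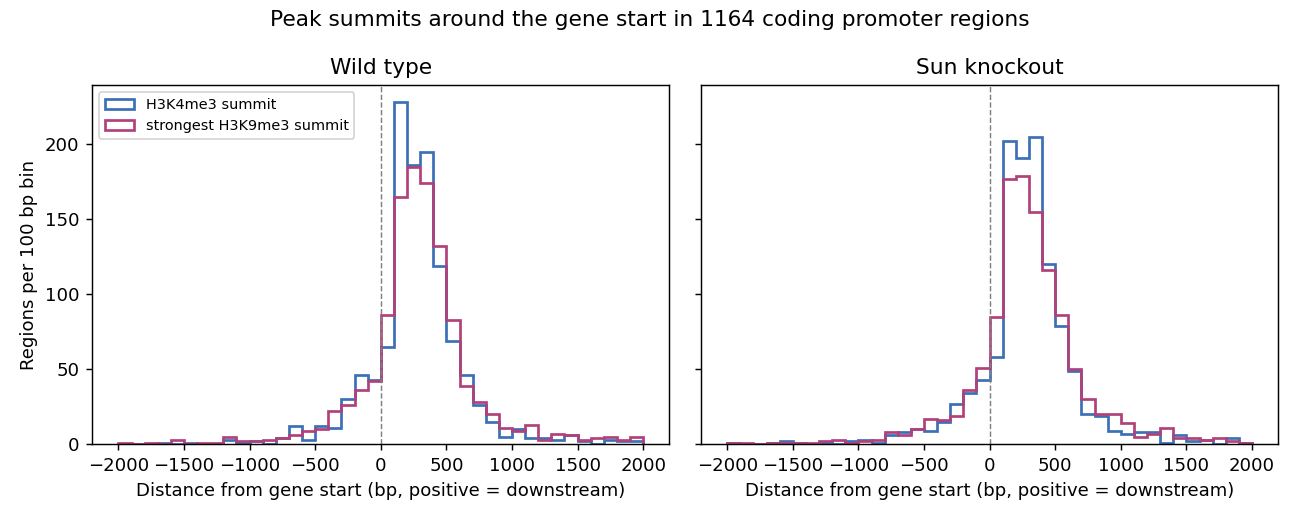
Distance of the H3K4me3 summit (blue) and of the strongest H3K9me3 summit (magenta) from the nearest protein-coding gene start, in bp with positive values downstream (x axis), as the number of regions per 100 bp (y axis), in 1164 coding promoters of wild type (left) and Sun knockout (right). Both marks peak on the downstream side, with medians between 267 and 283.5 bp.

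Promoters under both marks were rich in CpG dinucleotides. The 1331 RefSeq promoters of protein-coding genes whose start lay within one of the regions had a median of 30 CpGs per 300 bases (quartiles 22 and 39) and a median G and C content of 69.3%. Promoters with H3K4me3 in both genotypes and no H3K9me3, 8173 of them, had medians of 20 CpGs (13 and 27) and 61.0%. Promoters without a wild-type H3K4me3 peak had 3 CpGs and 48.0%. Those with H3K9me3 in the wild type alone or the knockout alone lay between, with 27 and 26 CpGs. The regions were wider than H3K4me3 peaks without H3K9me3, with medians of 1656.5 and 1215 bp. Peaks with H3K9me3 in the wild type alone or the knockout alone were wider still, with 1800.5 and 1694 bp. Within peaks of 1000 to 2000 bp the medians were 28 CpGs with H3K9me3 and 20 without, and within 2000 to 3000 bp 32 and 23. Within 1000 to 2000 bp the regions of all positions still leaned to wider peaks, with 443 above 1500 bp and 382 below, against 2819 and 4892 peaks without H3K9me3. Coding promoters made up 82.8% and 57.9% of these regions, and 73.9% and 62.0% of the peaks without H3K9me3. Their lean to wider peaks was thus stronger than the counts of all positions show. The part of width was not tested. Among shared H3K4me3 peaks of all positions, the share under both marks was 18.1% up to 500 bp, 8.05% at 500 to 1000 bp and 6.38% at 1000 to 1500 bp. It was 11.3% at 1500 to 2000 bp, 16.4% at 2000 to 3000 bp and 18.5% above 3000 bp. Coding promoters made up 0.637% of the regions up to 500 bp and 8.43% at 500 to 1000 bp, but 87.9% above 3000 bp. These shares therefore do not describe coding promoters alone, for which the share by width was not computed.

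**Figure D4:**
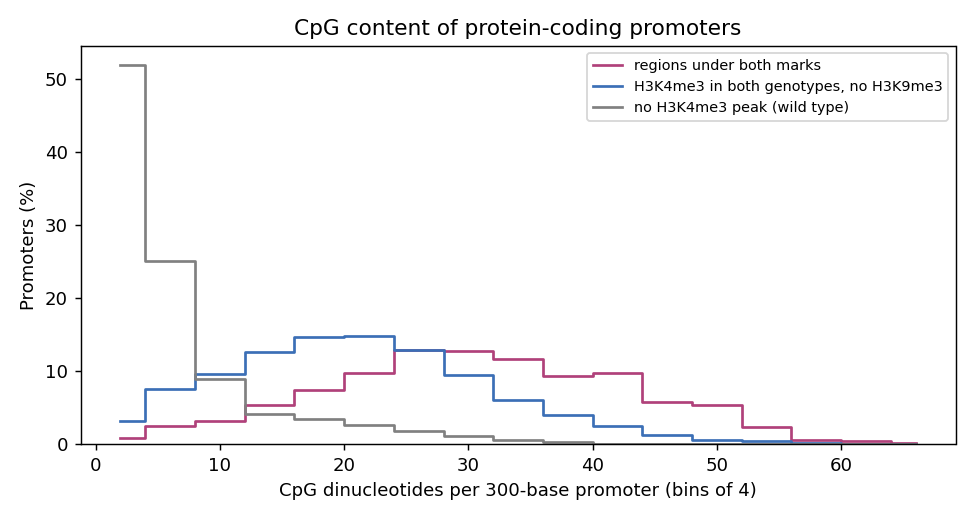
Distribution of CpG dinucleotides per 300-base promoter (x axis, bins of 4) as the percentage of protein-coding promoters (y axis), for promoters under both marks in both genotypes, promoters with H3K4me3 in both genotypes and no H3K9me3, and promoters with no wild-type H3K4me3 peak. The curve of the regions under both marks is shifted to the right, with medians of 30, 20 and 3 CpGs.

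The coding promoters with most H3K9me3 tags in the lower of both genotypes were mostly genes in tandem copies or with unassigned names. Duxf3, a member of the tandem Dux array on chromosome 10, whose family encodes early embryonic homeobox factors, held 753 and 641 H3K4me3 tags and 926 and 923 H3K9me3 tags in wild type and knockout. LOC100504180 next to it held 1057, 734, 916 and 785. Eppk1, which encodes the plakin family protein epiplakin and is built of repeated domains, held 324, 351, 412 and 406. Reads from copies this similar can be placed on the wrong copy, and how the aligner treated them is not given in the sources used here.

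Further down that order came genes at chromosome ends and single genes. Asmt, which encodes the last enzyme of melatonin synthesis and lies on the X chromosome near its end, held 239, 276, 259 and 262 tags. Csf2ra, which encodes a chain of the receptor for granulocyte-macrophage colony-stimulating factor, held 630, 547, 233 and 227 at chr19:61224981-61229088. Zfp579, a zinc finger gene, held 474, 303, 180 and 207. Apart from the tag-rich region inside Tmem267, the 5 widest regions had broad H3K4me3 and few H3K9me3 tags. Niban2 spanned 8448 bp with 1507 and 1074 H3K4me3 tags and 14 and 29 H3K9me3 tags, and Mgat4b 7283 bp with 1278, 783, 21 and 26.

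The gene lists were then read against 11.4%, the share of protein-coding genes with H3K4me3 at the start in both genotypes that had a region under both marks there (1541 of 13535; 7.04% of all 21896). Germline and meiosis genes, which are silent in body cells, were above it with 8 of 14, or 57.1%. Imprinted genes, which are expressed from the maternal or the paternal copy alone, followed with 15 of 34, or 44.1%. Hox genes had 6 of 32 (18.8%), H3K9 methylation machinery genes 4 of 25 (16%), zinc finger genes 44 of 423 (10.4%), cytosolic ribosomal protein genes 4 of 77 (5.19%) and histone genes 1 of 65 (1.54%). The lists had small numbers, and the difference from other genes was not tested.

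**Figure D5:**
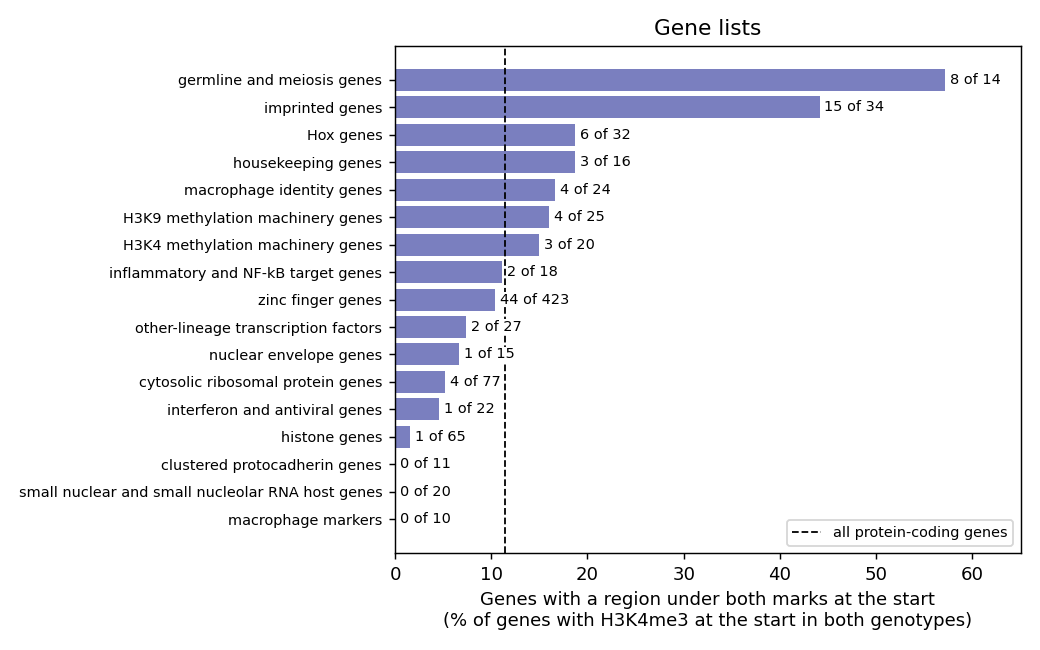
Percentage of the genes of each list with H3K4me3 at the start in both genotypes that had a region under both marks at the start (x axis); lists with at least 10 such genes are shown, with counts beside the bars and the share of all protein-coding genes, 11.4%, as a dashed line. Germline and imprinted genes stand highest, at 57.1% and 44.1%.

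All 8 germline regions had fewer H3K4me3 tags than the coding promoter medians of 443 and 331, and 4 of them, Dazl, Tex12, Ddx4 and Meioc, had more H3K9me3 tags than the medians of 25 and 29 in both genotypes. Dazl, which encodes an RNA-binding protein of germ cells, held 155 wild-type and 144 knockout H3K4me3 tags, and 127 and 121 H3K9me3 tags, with the strongest wild-type H3K9me3 peak at chr17:50292748-50293908 over the start shown above. Ddx4, which encodes the germ cell helicase VASA, held 39, 53, 40 and 86 tags. Tex12, a part of the synaptonemal complex that joins paired chromosomes in meiosis, held 32, 87, 48 and 96. In these 3 genes both marks had counts of the same order.

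The other germline members were Meioc (60, 71, 39 and 64 tags), which keeps cells in meiotic prophase, Dmc1 (73, 93, 22 and 41), a recombinase of meiosis, Stag3 (118, 94, 35 and 21), a meiotic cohesin subunit, Tex15 (158, 112, 14 and 25) and Ddx25 (123, 117, 14 and 30). Stag3 shares its peak with Gpc2, and Ddx25 with Pus3, so the H3K4me3 there may belong to either gene. Tex15 was below the H3K9me3 medians in both genotypes, and its wild-type log2 density ratio of H3K9me3 to H3K4me3, -1.13, and that of Ddx25, -1.03, were the lowest of the list. Over the 8 regions the median log2 ratio of H3K9me3 to H3K4me3 density was -0.02 (wild type) and 0.05 (knockout), against -1.53 and -1.18 over all coding promoters under both marks. Among 7 germline promoters with a sequence, 4 held CACGTG (57.1%) and 4 held GCGGGAA (57.1%), searched on both strands. Among all 32851 RefSeq promoters, 7.15% and 4.60% held them, and of all 1331 promoters under both marks 10.3% and 8.79%. GCGGGAA was added to the search after some of these sequences had been seen.

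Imprinted genes included growth regulators of the placenta and embryo. Cdkn1c, a maternally expressed cell cycle inhibitor gene, held 366 wild-type and 338 knockout H3K4me3 tags, and 183 and 120 H3K9me3 tags at chr7:143458877-143461845. Igf2r, which encodes the receptor that clears insulin-like growth factor 2, held 326, 223, 76 and 74. Mest, a paternally expressed gene of the alpha/beta hydrolase family, held 152, 103, 44 and 34, and its H3K9me3 peak at chr6:30737773-30738336 lay over the start shown above. At these 3 genes both H3K9me3 counts were above the medians of all coding promoters in the set, 25 and 29 tags.

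The other imprinted gene starts had 15 to 31 wild-type H3K9me3 tags. Slc38a4, an amino acid transporter gene, held 65, 61, 31 and 35 tags, Nap1l5 41, 24, 28 and 26, the shared start of Peg3 and Usp29 106, 48, 25 and 18, the shared start of Peg10 and Sgce 145, 202, 20 and 21, Grb10, a growth factor receptor adaptor gene, 200, 196, 28 and 16, and Igf2, the growth factor gene itself, 214, 162, 21 and 26. Gnas, which encodes a stimulatory G protein subunit, held 1049, 832, 26 and 57. Inpp5f, Kcnq1 and Peg12 were the remaining starts. Slc38a4 and Gnas were also above the coding promoter medians of H3K9me3 in both genotypes. Over 13 regions the median log2 density ratio of H3K9me3 to H3K4me3 was -0.48 and -0.35. The ZFP57 core was in 4 of 13 imprinted promoters under both marks (30.8%), in 27.6% of all promoters under both marks and in 11.6% of all RefSeq promoters, so imprinted promoters were close to the other promoters of the set. Counts on both lists depend on the score limit. With a score of at least 100 in every list, for H3K4me3 as well as H3K9me3, 2 of 9 germline genes (22.2%) and 4 of 29 imprinted genes (13.8%) were left, against 2.68% of protein-coding genes. Tex12 and Ddx4 fell out by their wild-type H3K4me3 scores of 95.7 and 96.2 and not by H3K9me3, and Nap1l5 by its knockout H3K4me3 score of 69.8. The other genes that fell out had a strongest H3K9me3 peak scoring below 100 in either or both genotypes. Examples are Mest with 94.5 and 74.8, Stag3 with 74.4 in the knockout and Ddx25 with 50.6 in the wild type.

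The lists of genes that macrophages use had shares on both sides of the 11.4% of all genes, and none was tested against it. Of the inflammatory and NF-kB target genes with H3K4me3 in both genotypes, 2 of 18 (11.1%) had a region under both marks, and of interferon and antiviral genes 1 of 22 (4.55%). Nfkbia, the gene of the NF-kB inhibitor I-kappa-B alpha, held 700 and 300 H3K4me3 tags and 18 and 33 H3K9me3 tags, and the chemokine gene Cxcl1 148, 86, 18 and 33. Of the macrophage identity list 4 of 24 (16.7%) were in, namely Apoe, a lipid carrier gene, with 623, 376, 48 and 64 tags, Cebpa, a myeloid transcription factor gene, with 1391, 937, 30 and 15, Maf with 745, 461, 17 and 48, and Gata6, the transcription factor gene of peritoneal macrophages, with 534, 443, 20 and 64. Of these 4, Apoe alone exceeded the coding promoter medians of 25 and 29 H3K9me3 tags in both genotypes. Eef2, the elongation factor gene of the housekeeping list, held 601, 472, 123 and 120.

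Some regions inside zinc finger genes had high H3K9me3 counts, while others lay near the medians of 39 and 46 of regions inside coding genes, such as Zfp541 with 50 and 34. Inside Zfp865 H3K4me3 peaks of 31 (wild type) and 105 (knockout) tags overlapped H3K9me3 peaks of 338 and 353 tags. Inside Zfp316 the counts were 284, 345, 290 and 286, and in the stronger of the regions inside Zfp600 88, 61, 165 and 116. Neighbouring regions gathered in 15 clusters of 4 or more, each within 50000 bp of the next, which held 101 of the 2410 regions. The 3 with most regions were chr4:146437220-146654281 over zinc finger genes such as Zfp992, Zfp981 and Zfp993 with 14 regions, chr8:20495112-20650206 over predicted genes with 12, and chr4:147101486-147276381 with Zfp978 and Zfp991 with 11. The first of these held 1145 and 951 H3K4me3 tags and 1437 and 1183 H3K9me3 tags in sum. By contrast a cluster of 5 regions at Evx2, Hoxd13, Hoxd11, Hoxd9 and Hoxd8, which pattern limbs and body axis, held 959 and 944 H3K4me3 tags and 208 and 386 H3K9me3 tags. By chromosome the share of H3K4me3 peaks in the set was 10.6% on chromosome 4, 3.25% on X and 13 of 30 peaks on Y.

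Between genes, the regions with most H3K9me3 outside the tag-rich ones lay at chr11:3100308-3105470 with 578, 353, 986 and 786 tags, chr10:3111150-3115487 with 576, 557, 834 and 722, chr15:91906322-91910469 with 502, 495, 698 and 714, and chr9:124256139-124258290 with 703, 668, 696 and 798. H3K9me3 counts were higher than H3K4me3 counts in both genotypes at the first 3 of these.

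Transfer RNA genes were in 5 of the regions (0.207%), against 63 of 17156 H3K4me3 peaks without H3K9me3 (0.367%). Neighbouring regions on chromosome 1 held 5 tRNA genes each and were among the tag-richest at noncoding genes, with 937, 1253, 531 and 703 tags (chr1:171063410-171067062) and 1174, 1509, 485 and 634 tags (chr1:171077397-171082264). Both marks had more unscaled tags in the knockout at these tRNA clusters. Per kb, unscaled H3K4me3 was lower in the wider knockout peaks, at 203 against 257 tags in the first and 202 against 241 in the second. Unscaled H3K9me3 per kb was higher in the knockout, at 206 against 159 and 183 against 149.

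H3K4me3 in knockout and wild type was compared in pairs of peaks that overlapped each other by at least 50% and no other peak, as tags per kb centred on the median of all 17114 pairs. The 1859 pairs in the regions had a median log2 ratio of 0.07, knockout over wild type, with an SD of 0.25 over pairs, against -0.02 and 0.24 for 12642 pairs without H3K9me3. The sign of this median depended on the scaling. With scaling to filtered tags it was -0.12 for the regions and -0.21 for peaks without H3K9me3, so the regions stayed higher. Regions between genes had a median of 0.23 over 176 pairs, with 144 above 0, and regions inside coding genes 0.21 over 213, with 173 above 0. Their counterparts without H3K9me3 had medians of 0.07 and 0.09. With scaling to filtered tags the regions between genes were at 0.04 with 98 of 176 above 0, and those inside coding genes at 0.02 with 114 of 213, against -0.12 and -0.10 without H3K9me3. Coding promoters were at 0.03 over 1339 pairs, against -0.05 without H3K9me3. A density at least 2-fold higher in the knockout was found in 4 of 1859 pairs of the regions and 0.0409% of all pairs, and one at least 2-fold lower in 0 of 1859 and 0.0117% of all pairs.

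Tex12 had the highest ratio of the coding promoters with at least 100 tags in a pair, 0.98 (interval 0.38 to 1.61), with 32 and 87 tags in peaks of 549 and 956 bp. It was followed by Ppm1n, a protein phosphatase gene, at 0.75 (0.41 to 1.09; 128 and 171 tags) and Kdf1, a keratinocyte differentiation gene, at 0.72 (0.36 to 1.08; 118 and 152 tags). These had more tags in the knockout in spite of its smaller library. Pced1b at 0.71, the heat shock gene Hspa1b at 0.68, Mindy2 at 0.67 and Slc15a4, a peptide and histidine transporter gene of lysosomes, at 0.64 had fewer tags in narrower knockout peaks, such as 713 tags over 3612 bp and 439 over 1807 bp for Slc15a4. The lowest ratios were those of Bnip2 at -0.83 (-1.09 to -0.57), the deubiquitinase gene Usp3 at -0.76, Arpc2, an actin nucleation subunit gene, at -0.64 and Tmem170b at -0.63. All of these had wider knockout peaks, such as 1736 and 3329 bp for Usp3.

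H3K9me3 in the regions was compared by the same pairing, and then by all H3K9me3 tags of a region. The 530 pairs in the regions had a median centred log2 density ratio of 0.02 with an SD of 0.25, and the 269 pairs elsewhere -0.05 and 0.28. At least 2-fold denser pairs were 0 of 530 in either direction, against 0% of all pairs denser and 0.125% less dense in the knockout. Copg2, a coatomer subunit gene with a region in its body, had the highest ratio of a named gene, 0.68 (interval 0.19 to 1.18; 57 and 93 tags). The lowest were Gm19193 at -0.87 and Dop1b at -0.60, with nearly equal tags in wider knockout peaks. The sums of tags gave another picture at coding promoters. Scaled to filtered tags, they had a median log2 ratio of 0.19 over 1439 regions, with 896 (62.3%) above 0, but -0.0027 per kb, and the knockout peaks were wider in 915 of them (63.6%). Regions between genes had a median of 0.05, with 234 of 414 above 0, and 3521 overlapping pairs of H3K9me3 peaks outside the regions -0.04, with 47.9% above 0. The caller's fragment size was 71 bp in the knockout and 66 bp in the wild type, and its part in the widths was not tested. Of all regions 11.9% had at least 2-fold more H3K9me3 tags in the knockout and 4.48% at least 2-fold fewer, and of coding promoters 221 (15.4%) and 74 (5.14%). Among the 3521 overlapping pairs outside the regions the shares were 3.49% and 3.58%. Those are single peaks paired 1 to 1, while a region sums all its peaks, so the measures differ.

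The summed H3K9me3 tags were then read by list, beside the 62.3% of coding promoters above 0 and the 15.4% at least 2-fold higher in the knockout. Of the 6 Hox regions 6 were above 0 and 3 at least 2-fold higher, namely Hoxd11 with 43 and 134 tags and a log2 ratio of 1.60 (interval 1.09 to 2.13), Hoxd13 with 21 and 61 tags at 1.49 (0.76 to 2.28) and Hoxd9 with 21 and 48 at 1.15 (0.38 to 1.96). Their peaks widened with the tags, such as to 1562 bp at Hoxd11. Hoxd8, with 66 and 73 tags, was at 0.10 (-0.40 to 0.60). Of the 2 other-lineage transcription factor genes, Foxd3 of the neural crest had 58 and 149 tags and a ratio of 1.32 (0.87 to 1.78), and Lhx2 68 and 87 tags at 0.31 (-0.16 to 0.79). The 4 macrophage identity genes went both ways, with Gata6 at 1.63 (0.89 to 2.44), Maf at 1.45 (0.63 to 2.34), Apoe at 0.37 (-0.19 to 0.94) and Cebpa at -1.04 (-2.04 to -0.10). Of the 8 germline regions 6 were above 0 and 2 at least 2-fold higher, Ddx4 at 1.06 (0.50 to 1.64) and Ddx25 at 1.06 (0.10 to 2.08), while Dazl was at -0.11 (-0.49 to 0.26). Imprinted regions went both ways, with 6 of 13 above 0, Gnas at 1.09 (0.40 to 1.82) and Cdkn1c at -0.65, with an interval wholly below 0. The largest list, zinc finger genes, had 19 of 44 regions above 0 and a median of -0.09, with 1 at least 2-fold higher and 3 at least 2-fold lower. These ratios have no replicate check.

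The H3K9me3 peaks of both genotypes mostly sat at the same place within a region, which the rule did not ask for. Of 2698 wild-type H3K9me3 peaks in the regions, 91.3% (interval 90.1 to 92.3%) overlapped a knockout peak directly. This share is raised by the rule, which demands a knockout peak somewhere in the region. Among all wild-type H3K9me3 peaks under a wild-type H3K4me3 peak, whether or not the knockout had one, it was 63.6% (62 to 65%) of 4316, and outside H3K4me3 peaks 23.5% (22.8 to 24.2%) of 14963. At over 20 and up to 50 tags the shares were 75% and 42.6%, and above 50 tags 94.6% and 74.1%, where the median tag counts were 80 and 67. The part of tag count was not tested. The regions held 14.0% of the wild-type and 15.6% of the knockout H3K9me3 peaks, and 28.8% and 31.9% of the tags in them.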

How the data were processed

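ChIP-seq for H3K4me3 and H3K9me3 was deposited as 1 peak list per library, made by the authors with MACS 1.4.2 without a control library, at a p-value limit of 1e-05 and with background taken from up to 10000 bp around each peak, per the file headers. Bowtie 0.12.8, CASAVA 1.4, DiffBind and the build mm10 are named in the submitters' processing notes. Each deposited peak has a tag count after duplicate removal, a score (from log10 of the p-value), a fold enrichment ratio over the local background, and other positional values in bp. Score and ratio are the authors' own.

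Overlaps, sums, pairs and intervals were computed with Python 3.11.15, numpy 2.4.6, pandas 2.3.3 and scipy 1.17.1, and figures with matplotlib 3.10.9. In each other list the tags of all peaks overlapping a region were summed. Pairs had at least 50 tags in 1 library. Shares have exact Clopper-Pearson intervals, and ratios exact conditional binomial intervals. Gene starts came from RefSeq promoters (GRCm38.p6) for 17491 of 21896 protein-coding genes. For other genes, which have no strand in the table used, either gene end was taken. Exons and introns were not assigned. The computation was tested on simulated data.

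The regions, gene lists and rules were chosen with earlier results of these data known. Named genes are the tag-rich regions, the 15 coding promoters with most H3K9me3, the 8 highest and lowest H3K4me3 ratios, the 5 highest and lowest H3K9me3 ratios, the 5 widest regions, the 5 regions between genes with most H3K9me3, and up to 4 genes per list. Not all are reported, and further list members, and the clusters and tRNA regions, were named after their values were seen. Alternatives were other overlaps, scores, anchors, tag limits, windows, scalings and pair limits.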

Additional observations from a re-analysis of the deposited data

How the results depend on the processing

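The number of regions was 2396 with an overlap of 50% of the shorter peak, 2415 anchored on knockout H3K4me3 peaks and 2274 where the H3K9me3 peaks of both genotypes had to overlap each other, but 635 with a score of at least 100 in every list. That score left 4 imprinted and 2 germline genes in place of 15 and 8; this alternative was added after seeing the data, as were a narrower and a wider window around the start for these genes, which gave 14 and 15 imprinted and 8 and 8 germline genes. Tag-rich regions numbered 15 above 500 tags and 3 above 2000. The H3K4me3 median of 0.07 became -0.12 with scaling to filtered tags, -0.019 with scaling to library totals and 0.10 with tags per peak. The H3K9me3 median of 0.02 became 0.0522 with scaling to library totals. The median summit distance of 85 bp became 95 bp over all H3K9me3 peaks, and the directly overlapping share of 91.3% became 85.8% at 50% of the shorter peak. The median of summed H3K9me3 tags at coding promoters, 0.19, became 0.24 with scaling to library totals and -0.0027 per kb, both added after seeing the data. The cause of these shifts was not tested. The narrower window gave 1417 and the wider 1466 coding promoters in place of 1439. No paired analysis was possible because each group has 1 library. At the median of 25 H3K9me3 tags per coding promoter, counting error limits what a single ratio can show.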
